A study of Mus musculus with 15 samples.

Results

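The genes described here are 10 feedback targets of the canonical Wnt pathway: Sp5, Lef1, Tcf7, Axin2, Nkd1, Notum, Apcdd1, Znrf3, Rnf43 and Lgr5. They were chosen by symbol, and all 10 were found among the 24346 gene symbols of an FPKM table (fragments per kilobase of transcript, scaled to the library's total) from 15 mouse RNA-seq libraries. The study followed cells of the C57BL/6 strain, from brain, through a chemical conversion of astrocytes towards neurons. It has 5 groups of 3 libraries: D0, the astrocytes; D4, D8 and D16, sampled after 4, 8 and 16 days and named chemical-induced neurons in the labels; and PN, primary neurons used as a reference. The labels name no compound, dose, transgene or sorting step for any group, and they do not say whether the 3 libraries of a group are separate biological samples or repeats of 1. The title speaks of conversion in vivo, while the labels give brain as the source and do not say whether the induced cells were taken from tissue or from culture. The p-values below therefore cover the spread among these libraries, which may be technical. D0, D4, D8 and D16 were thus set apart by day and label alone, and PN is a separate preparation of cells rather than a later day of the same series.

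In canonical Wnt signalling, a secreted Wnt ligand binds a Frizzled receptor and an Lrp co-receptor and stops a cytoplasmic destruction complex, built on Axin and Apc and containing the kinase GSK3, from marking beta-catenin for degradation. Beta-catenin then enters the nucleus and joins DNA-bound factors of the Tcf and Lef family, which turn corepressed genes into transcribed ones. Many of the genes switched on this way act back on the pathway at different levels, and for that reason their transcripts are often read as a gauge of it. Axin2, Nkd1, Notum, Apcdd1, Znrf3 and Rnf43 are inhibitors, Lef1 and Tcf7 are themselves DNA-binding factors of the family, Sp5 is a transcription factor known to dampen other targets, and Lgr5 is a receptor that supports the pathway. In the brain, expression of such targets is best known from development, from blood vessels and from the oligodendrocyte lineage.

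Promoter windows of 3 genes are shown because Sp5 had the largest rise of the set, Lef1 changed places in level with Tcf7, and Axin2 is the most widely used target. RefSeq promoter entries (build GRCm38.p6) were found for 6 of the 10 members, with 11 entries in all; Notum, Lgr5, Znrf3 and Apcdd1 had none. The 250 bases before each annotated start were searched on both strands for 4 words of 7 bases that match the core bound by Tcf and Lef factors. The words were AACAAAG and ATCAAAG and, with a leading T, TACAAAG and TTCAAAG, and no matches printed here overlapped. Capitals mark a match on either strand, and each window is written 5′ to 3′ on the plus strand, which is the coding strand of all 3 genes.
Sp5, chr2:70474673-70474922: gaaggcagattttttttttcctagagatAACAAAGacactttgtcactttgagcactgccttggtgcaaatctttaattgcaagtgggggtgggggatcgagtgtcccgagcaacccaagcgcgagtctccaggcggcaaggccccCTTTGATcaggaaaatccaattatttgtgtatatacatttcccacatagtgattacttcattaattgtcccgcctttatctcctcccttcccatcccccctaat
Lef1 internal start, chr3:131156044-131156293: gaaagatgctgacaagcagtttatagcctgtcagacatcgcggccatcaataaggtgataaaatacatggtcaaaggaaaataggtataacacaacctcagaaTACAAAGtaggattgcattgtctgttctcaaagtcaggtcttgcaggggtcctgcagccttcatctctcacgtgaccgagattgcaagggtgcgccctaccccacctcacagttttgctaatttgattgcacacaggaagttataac
Axin2, chr11:108920099-108920348: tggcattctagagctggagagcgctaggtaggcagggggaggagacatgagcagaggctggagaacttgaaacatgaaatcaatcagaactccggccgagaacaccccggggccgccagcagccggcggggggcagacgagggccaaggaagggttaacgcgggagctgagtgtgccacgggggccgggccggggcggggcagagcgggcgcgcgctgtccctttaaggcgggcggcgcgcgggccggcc
The Sp5 window held 2 matches, AACAAAG from -222 to -216 and CTTTGAT, the reverse complement of ATCAAAG, from -104 to -98, counted from the annotated start. The Lef1 window before an internal annotated start held 1 match, TACAAAG from -147 to -141. The Axin2 window held 0, as did the other 8 member entries: 3 of Lef1, at starts nearer its 5′ end, and those of Nkd1, Tcf7 and Rnf43. Of all 32851 promoter entries of the same length, 14.8% held at least 1 such word and 1.43% at least 2. A match is a description of the letters and not of binding, and 0 matches says only that these words are not in these windows.

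Depth was not given, but the steps of low FPKM values gave a relative depth of 0.68 to 1.95 across libraries, with PN deepest at 1.64 to 1.95; FPKM totals ran from 548309 to 787080. Differences were taken between log2(FPKM + 1) values, each ± its standard error from limma fitted over all 15 libraries, and p-values were adjusted by Benjamini-Hochberg over the 13983 genes that reached 1 FPKM in at least 3 libraries. A call required an adjusted p under 0.05 together with a log2 change of 1 or more in size; because of the added 1 FPKM, changes of weakly expressed genes come out too small. Of the 10 members 9 were tested, and Rnf43, which reached 1 FPKM in too few libraries, was described by its levels. At D0 the astrocyte filament gene Gfap stood at 559.6 ± 239.1 FPKM (mean ± SD, n = 3) against 4.22 ± 6.68 at D16. The synaptic vesicle fusion gene Snap25 stood at 0.183 ± 0.289 FPKM at D0, 171.9 ± 39.2 at D16 and 195.0 ± 83.4 in PN. The migrating-neuron gene Dcx, at 132.5 ± 18.8 FPKM in PN, was near absent at D16 (0.318 ± 0.103), and the astrocyte gap junction gene Gjb6 was listed at 0 in every D0 library.

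Of the feedback targets, 6 were higher at D4, and 5 of these 6, all but Notum, were also higher at D8 and D16. At D4 against D0, 6 of the 9 tested members were higher (Sp5, Lef1, Axin2, Nkd1, Notum and Apcdd1), 1 was lower (Tcf7) and 2 were not called (Znrf3 and Lgr5), where 13.6% of all tested genes were called higher and 14.2% lower. At D8 against D0, 5 were higher, 1 lower and 3 not called, with 15.5% of all genes higher and 16.9% lower. At D16 against D0 the counts were again 5, 1 and 3, with 16.6% of all genes higher and 18.7% lower. The median change of the tested members was 2.33 at D4, 2.03 at D8 and 2.53 at D16, while the median over all tested genes lay between -0.008 and 0.002. The 5 members higher on all 3 days were Sp5, Lef1, Axin2, Nkd1 and Apcdd1, and in each of them every library of the induced days exceeded every D0 library. No share of all genes without such overlap is given here, so the lack of overlap only describes these members. These 3 comparisons share the D0 libraries.

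**Figure D1:**
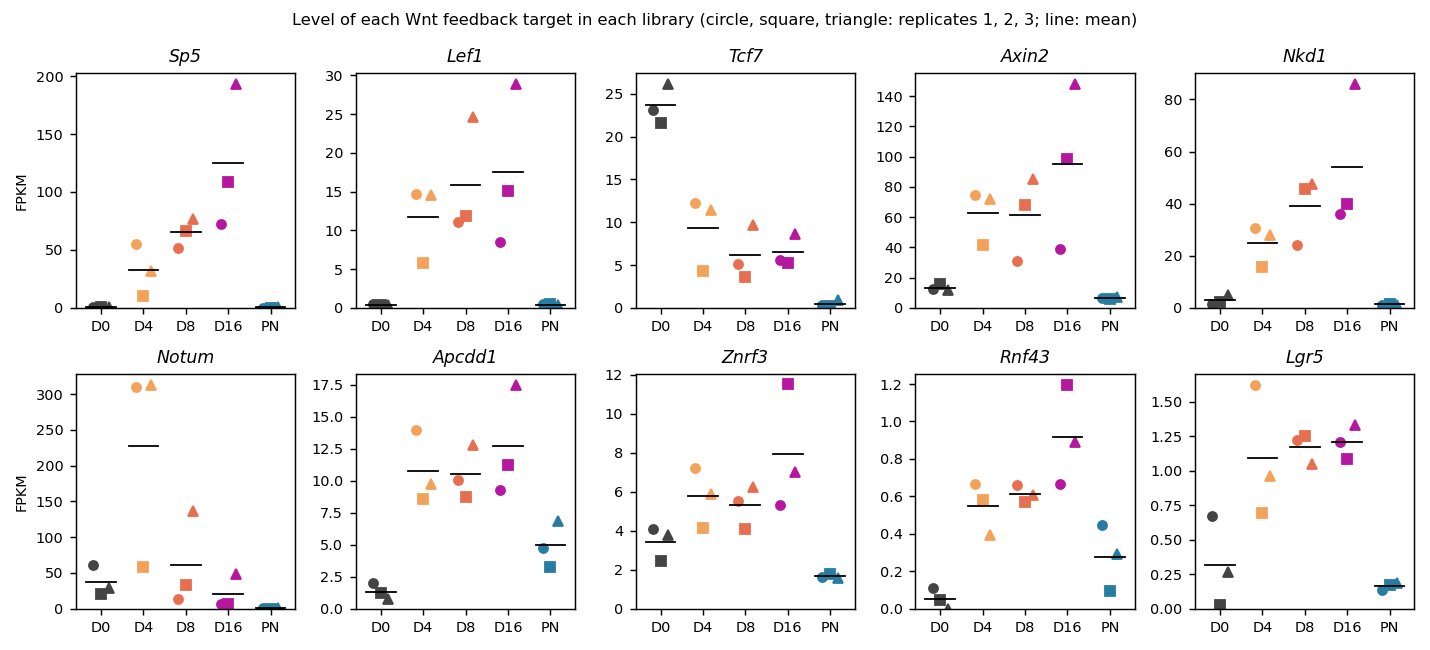
Level of each of the 10 feedback targets in each library, in FPKM on the vertical axis (a linear scale of its own for each gene) for groups D0, D4, D8, D16 and PN; circles, squares and triangles are replicates 1, 2 and 3, and lines are group means. Sp5 climbs from 0.566 FPKM at D0 to 124.7 at D16, Notum peaks at D4 (227 FPKM), and Tcf7 is highest at D0 (23.6 FPKM).

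Sp5 (chromosome 2, 70474923 to 70477729, plus strand), a zinc-finger transcription factor of the Sp family, made the largest move of the set. Its level was 0.665, 0.393 and 0.639 FPKM in D0 replicates 1 to 3 and 55.1, 10.1 and 32.1 FPKM at D4. It was 51.6, 66.7 and 76.7 FPKM at D8 and 72.3, 108.8 and 192.9 FPKM at D16, but 0.208, 0.117 and 0.501 FPKM in PN. Every induced library was above every D0 and PN library, and the D0 and PN ranges overlapped. The mean was 57.4-fold that of D0 at D4, 115-fold at D8 and 220-fold at D16. On the log2 scale the changes from D0 were 4.14 ± 0.44 (adjusted p = 2.12e-06), 5.38 ± 0.44 (9.18e-08) and 6.22 ± 0.44 (1.74e-08). The rise went on within the induced days: D16 exceeded D4 by 2.08 ± 0.44 (adjusted p = 0.00509), without overlap of the libraries.

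Lef1 (chromosome 3, 131110471 to 131224356, plus strand) encodes a Tcf and Lef family factor that gains its activating role by recruiting beta-catenin. It stood at 0.469, 0.327 and 0.318 FPKM in the D0 libraries, and at 14.7, 5.80 and 14.5 FPKM at D4. At D8 it was 11.1, 11.8 and 24.6 FPKM, at D16 8.55, 15.01 and 28.8 FPKM, and in PN 0.441, 0.491 and 0.319 FPKM. The lowest induced library, D4 replicate 2, was still far above the highest D0 or PN library, and the induced days overlapped each other. The mean was 31.5-fold that of D0 at D4, 42.7-fold at D8 and 47.0-fold at D16. The log2 changes were 3.11 ± 0.39 (adjusted p = 9.54e-06), 3.53 ± 0.39 (1.87e-06) and 3.60 ± 0.39 (1.35e-06).

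Tcf7 (chromosome 11, 52252371 to 52283014, minus strand), which encodes the family member also known as TCF1, was the 1 tested member called lower on the induced days. It was at 23.2, 21.6 and 26.1 FPKM at D0, 12.3, 4.33 and 11.5 FPKM at D4, and 5.12, 3.66 and 9.70 FPKM at D8. It was at 5.53, 5.24 and 8.66 FPKM at D16 and 0.313, 0.217 and 0.931 FPKM in PN. D0 lay above every other group and PN below every other group, with the induced days between them and overlapping each other. Mean Tcf7 was 2.53-fold higher at D0 than at D4, 3.84-fold higher than at D8 and 3.65-fold higher than at D16. The log2 changes were -1.36 ± 0.35 at D4 (adjusted p = 0.00391), -1.87 ± 0.35 at D8 (2.80e-04), -1.75 ± 0.35 at D16 (4.48e-04) and -4.08 ± 0.35 in PN (5.88e-08). Without D4 replicate 2, the change at D4 was -0.93 (adjusted p = 0.0222), short of the required size. The annotated Tcf7 locus overlaps that of Skp1, and whether reads were counted by strand is not given in the sources used here.

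The pair therefore changed places in level between D0 and the induced days. In each library the ratio of Lef1 to Tcf7 FPKM was 0.0202, 0.0151 and 0.0122 at D0 and 1.2, 1.34 and 1.27 at D4. It was 2.17, 3.24 and 2.54 at D8 and 1.55, 2.86 and 3.33 at D16. All 9 induced libraries had more Lef1 than Tcf7, and all 3 D0 libraries had more Tcf7 than Lef1. The ratio at D4 did not overlap that at D8 or D16, and D4 replicate 2, low in both genes, had a ratio of 1.34, close to the other D4 libraries. In PN both genes were below 1 FPKM and the ratio spread from 0.343 to 2.26. The summed FPKM of the 4 family members (Lef1, Tcf7, Tcf7l1 and Tcf7l2) was 40.1, 42.1 and 49.9 at D0, 37.5, 17.0 and 36.2 at D4, 29.4, 21.2 and 44.3 at D8, and 26.8, 34.6 and 49.9 at D16. The sums of D0 and each induced day were thus nearer to each other than the levels of Lef1 or Tcf7 alone, and all were above the 1.52, 1.77 and 4.65 FPKM of PN.

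**Figure D2:**
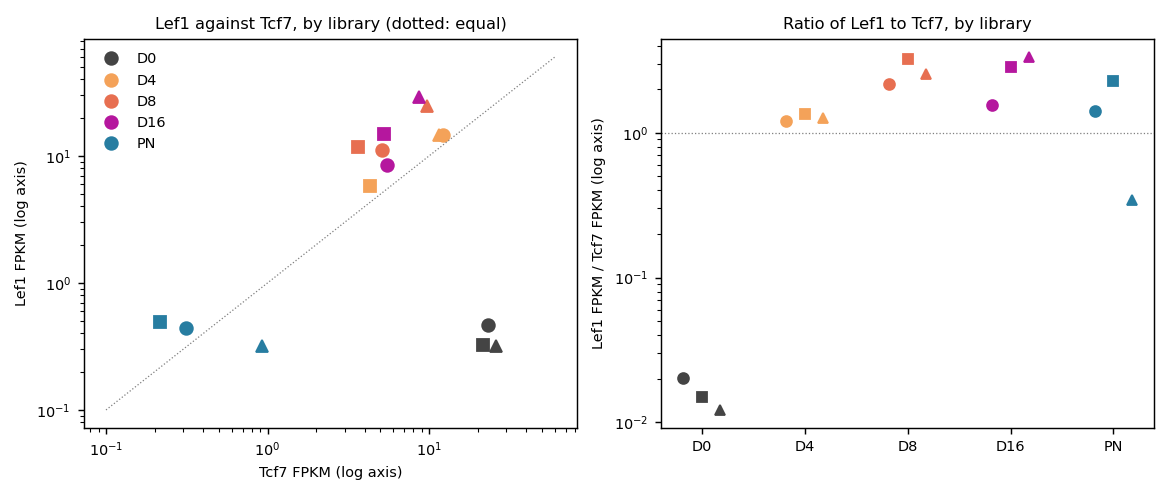
Left, Lef1 against Tcf7 level in FPKM, each point 1 library and both axes logarithmic, with a dotted line of equal levels; right, the ratio of Lef1 to Tcf7 FPKM in each library on a logarithmic axis (circle, square and triangle for replicates 1, 2 and 3). The D0 libraries lie at ratios of 0.0122 to 0.0202, and the 9 induced libraries at 1.2 to 3.33.

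Axin2 (chromosome 11, 108920349 to 108950783, plus strand) encodes a scaffold of the destruction complex and is the inducible counterpart of Axin1. Its level was 12.3, 15.7 and 11.7 FPKM at D0, 74.5, 41.5 and 71.8 FPKM at D4, and 31.2, 68.1 and 85.2 FPKM at D8. It reached 38.7, 98.5 and 148 FPKM at D16 and stood at 6.71, 5.67 and 7.10 FPKM in PN. Unlike Sp5 and Lef1, it was already well detected at D0, and its D0 libraries lay between PN and the induced days without overlap on either side. Mean Axin2 was 4.73-fold that of D0 at D4, 4.65-fold at D8 and 7.18-fold at D16. The log2 changes were 2.12 ± 0.41 (adjusted p = 5.10e-04), 2.03 ± 0.41 (6.22e-04) and 2.57 ± 0.41 (6.86e-05). At D16 the highest library was 3.82-fold the lowest, and in PN Axin2 was -0.92 ± 0.41 from D0 and not called (adjusted p = 0.0631).

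Nkd1 (chromosome 8, 88521354 to 88594884, plus strand) encodes Naked cuticle 1, which binds Dishevelled and antagonises signalling. It was at 1.64, 2.36 and 4.94 FPKM at D0, 30.6, 15.7 and 27.9 FPKM at D4, and 24.0, 45.6 and 47.7 FPKM at D8. At D16 it was 36.1, 40.0 and 85.8 FPKM, and in PN 1.16, 1.65 and 1.12 FPKM. D0 and PN overlapped, and every induced library was above both. The mean was 8.30-fold that of D0 at D4, 13.1-fold at D8 and 18.1-fold at D16, with log2 changes of 2.73 ± 0.37 (adjusted p = 1.95e-05), 3.36 ± 0.37 (1.76e-06) and 3.76 ± 0.37 (4.62e-07). Between D4 and D16 the libraries did not overlap, but the difference of 1.04 ± 0.37 missed the threshold (adjusted p = 0.0633). That comparison was called under an equal total (adjusted p = 0.0467), quantile normalization (0.0347) and a replicate block (0.0333), and without D16 replicate 1 (0.0476).

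Notum (chromosome 11, 120653788 to 120661175, minus strand) encodes a secreted enzyme that removes the lipid from Wnt ligands, and it followed a course of its own. It was at 61.1, 20.1 and 29.1 FPKM at D0 and at 310.5, 58.8 and 312.2 FPKM at D4. It was then 13.4, 33.2 and 136.3 FPKM at D8, 7.35, 6.44 and 48.5 FPKM at D16, and 0.407, 0.244 and 1.37 FPKM in PN. Notum was the most abundant member at D0 and D4 by group mean, at 36.8 ± 21.5 and 227 ± 146 FPKM, and fell behind Sp5, Axin2 and Nkd1 by D16. The rise at D4 was 2.40 ± 0.84 on the log2 scale (adjusted p = 0.0252), but the D0 and D4 ranges overlapped, since D4 replicate 2 was below D0 replicate 1. That call was lost without D0 replicate 2 (adjusted p = 0.0899), D0 replicate 3 (0.0644), D4 replicate 1 (0.0957) or D4 replicate 3 (0.0971), and with no filter on low values (0.0511). From D4 to D16 Notum fell by 3.63 ± 0.84 (adjusted p = 0.00849), a 10.9-fold drop of the mean, and those libraries did not overlap.

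Against D0, Notum was not called at D8 (0.26 ± 0.84, adjusted p = 0.811) or D16 (-1.23 ± 0.84, adjusted p = 0.219). The D8 value changed sign without D0 replicate 2 (-0.085) and without D8 replicate 3 (-0.62). Without D16 replicate 3, the highest of its group, Notum was called lower at D16 (-2.11, adjusted p = 0.0391). In PN it was lower than at D0 by 4.41 ± 0.84 on the log2 scale (adjusted p = 2.73e-04), with no overlap.

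The remaining members act at the cell surface. Apcdd1 (chromosome 18, 62922231 to 62961179, plus strand), a membrane-bound inhibitor that binds Wnt and Lrp proteins, was at 2.03, 1.21 and 0.798 FPKM at D0 and 13.9, 8.53 and 9.71 FPKM at D4. It was at 10.03, 8.76 and 12.8 FPKM at D8 and 9.27, 11.3 and 17.5 FPKM at D16. In PN it was at 4.78, 3.25 and 6.87 FPKM, above D0 and below all induced libraries. Its log2 changes from D0 were 2.33 ± 0.28 (adjusted p = 6.01e-06), 2.32 ± 0.28 (4.49e-06) and 2.53 ± 0.28 (1.54e-06) on the 3 induced days, and D16 differed from D4 by 0.20 ± 0.28 (adjusted p = 0.651). Apcdd1 was also the 1 member called higher in PN than at D0 (1.34 ± 0.28, adjusted p = 5.71e-04).

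Znrf3 (chromosome 11, 5276324 to 5444847, minus strand) and Rnf43 (chromosome 11, 87662722 to 87735539, plus strand) encode ubiquitin ligases that clear Frizzled receptors from the membrane. Znrf3 was at 4.11, 2.46 and 3.77 FPKM at D0, 7.24, 4.16 and 5.90 at D4, and 5.54, 4.10 and 6.27 at D8. It was at 5.34, 11.5 and 7.01 FPKM at D16 and 1.62, 1.78 and 1.59 FPKM in PN, below every other library. Its changes from D0 were not called at D4 (0.60 ± 0.25, adjusted p = 0.054), D8 (0.51 ± 0.25, 0.0916) or D16. The D16 change had an adjusted p of 0.00326 and, at 0.97 ± 0.25, fell just short of the required size; it was called with a pseudocount of 0.1 (1.14) and when D0 replicate 1 (1.08), D0 replicate 3 (1.03), D16 replicate 1 (1.19) or D16 replicate 3 (1.02) was left out. Rnf43 was low throughout, at 0.108, 0.0445 and 0 FPKM at D0, 0.664, 0.581 and 0.394 at D4, 0.663, 0.569 and 0.607 at D8, and 0.666, 1.19 and 0.891 at D16. All 9 induced libraries were above the 3 of D0, whereas PN, at 0.445, 0.0947 and 0.291 FPKM, overlapped both D0 and D4. With no filter, its log2 changes from D0 were 0.55, 0.62 and 0.86 on the 3 days and none reached the required size. The annotated Rnf43 locus overlaps Gm25968 and 1110028F11Rik.

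Lgr5 (chromosome 10, 115450311 to 115587780, minus strand), the R-spondin receptor known as a marker of intestinal stem cells, also stayed low. It was at 0.670, 0.0270 and 0.263 FPKM at D0, 1.62, 0.696 and 0.964 at D4, 1.23, 1.25 and 1.05 at D8, 1.21, 1.09 and 1.33 at D16, and 0.139, 0.172 and 0.184 in PN. Every induced library was above every D0 and PN library, by little at D4. The log2 changes of 0.67 ± 0.19 (adjusted p = 0.00774), 0.75 ± 0.19 (0.00328) and 0.77 ± 0.19 (0.00245) passed the p threshold and not the size. With a pseudocount of 0.1, which compresses low values less, they were 1.79, 1.95 and 1.99 and were called. The locus overlaps A930009A15Rik.

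**Figure D3:**
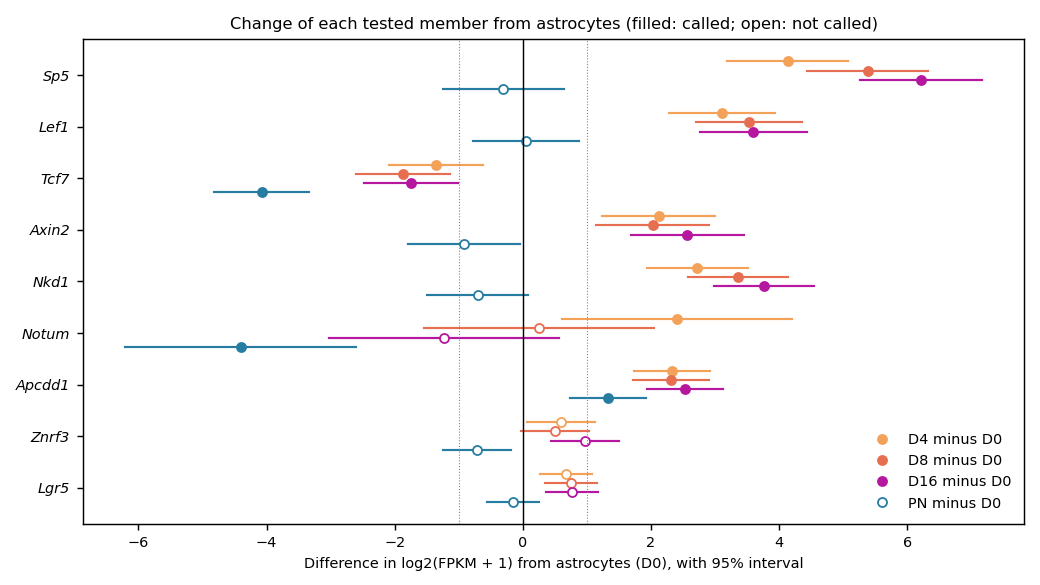
Difference in log2(FPKM + 1) from D0 for the 9 tested members at D4, D8, D16 and in PN, with 95% intervals from limma; filled points were called and open points were not, and dotted lines mark a change of 1 in either direction. Sp5, Lef1, Axin2, Nkd1 and Apcdd1 lie to the right on all 3 induced days, Tcf7 lies to the left in all 4 comparisons, and Notum crosses from 2.40 at D4 to -1.23 at D16.

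Between the induced days few members moved. From D4 to D8, 0 of 9 tested members were called by limma, with 0.501% of all genes higher and 1.51% lower; over all genes 2010 had an unadjusted p below 0.05. Among the members, Sp5 (1.25 ± 0.44, adjusted p = 0.179) and Notum (-2.14 ± 0.84, adjusted p = 0.235) had the largest differences in size, and the Sp5 value was called once D4 replicate 1 was left out (1.76, adjusted p = 0.0294). From D4 to D16, 1 member was higher (Sp5), 1 lower (Notum) and 7 not called, against 2.94% of all genes higher and 4.26% lower. The intervals of the uncalled differences were wide: that of Axin2 from D4 to D16 ran from -0.44 to 1.33 on the log2 scale, and that of Lef1 from -0.34 to 1.32. Ordered by group mean, D16 was highest for all members but Notum and Tcf7, and in all of these but Rnf43 the D16 range overlapped that of the next group.

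Primary neurons were low in most members. Against D0, PN was higher in 1 member (Apcdd1), lower in 2 (Tcf7 and Notum) and not called in 6, where 17.1% of all genes were higher and 23.9% lower. Among those 6, Sp5 differed from D0 by -0.30, Lef1 by 0.05 and Lgr5 by -0.15 on the log2 scale, and Nkd1 by -0.71 ± 0.37 (adjusted p = 0.106). Znrf3 was lower by less than the required size (-0.72 ± 0.25, adjusted p = 0.0195), and Axin2 passed both thresholds with a pseudocount of 0.1 (-1.01, adjusted p = 0.0484). The median over all genes in this comparison was -0.119, and another scaling moved it by 0.109 (equal total) or 0.123 (quantile).

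Among the comparisons made, D16 against PN separated the set most, while D4 and D8 were not compared with PN. Of 9 tested members 8 were higher at D16, 0 lower and 1 (Lgr5, 0.92 ± 0.19) not called, with 19.6% of all genes higher and 15% lower; the member median was 3.18 and that over all genes 0.058. Sp5 differed by 6.52 ± 0.44 (adjusted p = 1.15e-08), Nkd1 by 4.47 ± 0.37 (8.18e-08), Lef1 by 3.55 ± 0.39 (1.57e-06) and Axin2 by 3.49 ± 0.41 (3.47e-06). Tcf7, though lower at D16 than at D0, was higher at D16 than in PN by 2.33 ± 0.35 (3.26e-05), and Notum by 3.18 ± 0.84 (0.00415). The Apcdd1 difference, 1.196 ± 0.28 (0.00161), fell to 0.96 without D16 replicate 3 and to 0.97 without PN replicate 2, below the required size.

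In every group a single library was highest in most members, though the lowest library was less uniform at D0 and D8. D0 replicate 1 was the highest of its group in 7 of 10 members and PN replicate 3 in 6, and PN replicate 2 was the lowest in 6. D4 replicate 2 was the lowest of its group in 9 of 10 members, D16 replicate 1 in 7, and D8 replicates 1 and 2 in 5 and 4, while D4 replicate 1 was the highest in 9, D8 replicate 3 in 8 and D16 replicate 3 in 8. The exceptions at D16 were Znrf3 and Rnf43, highest in replicate 2. Over all genes with signal, D4 replicate 2 was lowest in 45.1%, D16 replicate 1 in 29.9%, D8 replicates 1 and 2 in 33.9% and 46.0%, and PN replicate 2 in 33.5%. D4 replicate 1 was highest in 37.1%, D8 replicate 3 in 30.0%, D16 replicate 3 in 34.9%, D0 replicate 1 in 35.4% and PN replicate 3 in 37.5%. These shares were less one-sided than the member counts, except in D8 replicate 2, where 4 of 10 members did not exceed the share of all genes. Notum departed furthest from its group means, by -1.59 in D4 replicate 2, -1.504 in D8 replicate 1, 1.75 in D8 replicate 3 and 1.77 in D16 replicate 3 (log2). Sp5 was 1.30 below its D4 mean in replicate 2, and Axin2 1.08 below its D16 mean in replicate 1, whereas no library departed by more than 0.37 in Lgr5 or Rnf43. Those 2 genes are low, and the added 1 FPKM shrinks their spread: in FPKM the highest D0 library of Lgr5 was 24.8-fold the lowest. The relative depth of D4 replicate 2 was 1.56, against 0.686 and 0.682 in the other D4 libraries, and D8 replicate 3 and D16 replicate 3 were the shallowest of their groups at 0.68 and 0.719; the part of depth in these differences was not tested. Leaving out D4 replicate 2, D8 replicate 1 and D16 replicate 1, a choice made after seeing the data, ended the Tcf7 call at D4 (-0.93, adjusted p = 0.0334) and added Znrf3 at D16 (1.19, adjusted p = 0.0015); it ended no other call of a member in the comparisons with D0.

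**Figure D4:**
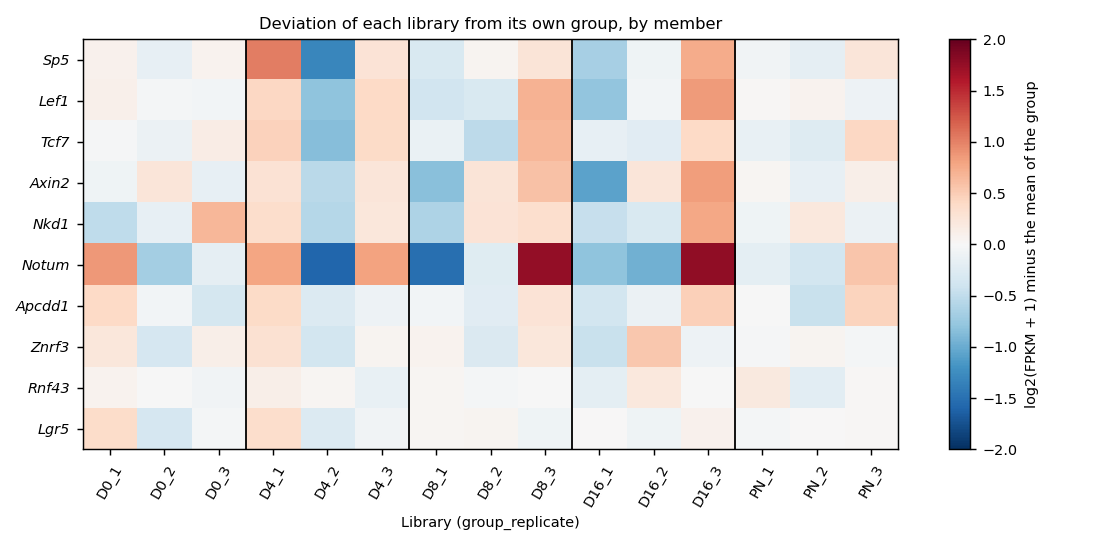
Deviation of each library from the mean of its own group, as log2(FPKM + 1) with red above and blue below, for the 10 members (vertical) in the 15 libraries (horizontal, group and replicate number). D4 replicate 2 is blue in nearly all members and D16 replicate 3 red in most, with Notum reaching -1.59 and 1.77 in them.

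Over the 15 libraries Sp5, Lef1, Nkd1 and Axin2 followed each other closely. Pearson's r of log2(FPKM + 1) was 0.98 for Sp5 with Nkd1, 0.977 for Sp5 with Lef1 and 0.941 for Sp5 with Axin2, given as a description since the libraries of a group share their day. Within the 9 induced libraries r was still 0.913 for Sp5 with Nkd1 and 0.825 for Axin2 with Lef1. Tcf7 stood apart from this group over all libraries (r = 0.182 with Sp5 and 0.171 with Lef1) but within the induced libraries correlated at 0.606 with Lef1 and 0.752 with Notum. Sp5 and Notum ran at -0.293 within the induced libraries. These values share library depth and the differences between libraries given above.

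The genes most like each member over the 15 libraries were sought among 11619 genes with a group mean of at least 5 FPKM, for the 8 members that reached that level (not Rnf43 or Lgr5). For Sp5 they were the adhesion gene Pvrl4 (r = 0.993), the retinoic acid synthesis gene Aldh1a2 (0.992) and Wnt6 (0.990). Pvrl4, at 0.357 FPKM on average at D0 and 6.91 at D16, was also first for Lef1 (0.986) and Nkd1 (0.987). Lef1 was next followed by Ism1 and Lrrc27 (both 0.983), and Nkd1 by Ahcyl2 (0.982) and Sp5 (0.980). Axin2 was most like Ism1 (0.968), Nkd1 (0.958) and Lef1 (0.954), so that 2 of its 3 nearest genes were members of the set. Tcf7 was most like genes that ran down from D0 to PN: the innate immune adaptor Mavs (0.969), Fhl3 (0.969) and the unconventional myosin Myo10 (0.965), the last at 55.7 FPKM at D0, 18.1 at D16 and 2.66 in PN. Notum, with the lowest nearest correlation of the 8, was nearest to Edem2 (0.930), Cecr5 (0.928) and Snx5 (0.928). Znrf3 was nearest to the nuclear importer Ipo7 (0.977), Bmp2k and Brap, and Apcdd1 to Leprotl1 (0.953), Rcor2 and Tcfl5.

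Around the feedback targets, 105 other symbols of the pathway were listed by role, of which 102 were in the table and 86 were tested. Of these 86, 20 were higher, 13 lower and 53 not called at D4 against D0, 18, 14 and 54 at D8, and 19, 16 and 51 at D16, shares to be read against the percentages of all genes given above. In PN 17 were higher, 26 lower and 43 not called against D0, and at D16 against PN 31 were higher, 10 lower and 45 not called. Among 12 tested Wnt ligands, 6 were higher and 2 lower at D4, and 5 higher and 2 lower at D16. Wnt6 had the largest change of the ligands, from 0.0826 FPKM at D0 to 6.89 at D4 and 24.0 at D16, with 0.288 in PN (D16 against D0 4.45 ± 0.32, adjusted p = 2.12e-08). Wnt16 went from 0.0539 to 4.73 FPKM at D16 (2.43 ± 0.28), and Wnt5b, a ligand best known for signalling without beta-catenin, fell from 32.7 to 12.3 FPKM (-1.27 ± 0.31, adjusted p = 0.00246). The 2 genes of ligand lipidation and secretion were not called on any induced day, with Wls at 115.6 FPKM at D0 and 87.6 at D16 and Porcn at 7.57 and 10. In PN Wls was lower (24.2 FPKM, -2.30 ± 0.28) and Porcn higher (19.0 FPKM, 1.26 ± 0.19).

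Receptors moved both ways. Of 15 Frizzled and co-receptor genes, 3 were higher and 6 lower at D16 against D0, and 1 higher and 9 lower in PN. Over all genes 16.6% were higher and 18.7% lower at D16, and 17.1% and 23.9% in PN. The 3 higher at D16, named after their values were seen, were Fzd9, Fzd10 and Ror2. Fzd9 went from 0.705 FPKM at D0 to 8.01 at D16 and Fzd10 from 0.897 to 6.94. Ror2 was at 0.632 to 1.11 FPKM in the D0 libraries and 4.93 to 6.25 in those of D16. Fzd7 went from 37.3 to 4.41 FPKM at D16 (-2.83 ± 0.23, adjusted p = 5.30e-08) and Fzd5 from 22.6 to 5.43 FPKM (-1.88 ± 0.18, 4.63e-07). Fzd6 was alike at D0 and D16 (16.03 and 14.5 FPKM; -0.10 ± 0.21, adjusted p = 0.71) but 0.679 FPKM in PN (-3.32 ± 0.21). The R-spondins are the ligands of Lgr5 and its relatives and hold Znrf3 and Rnf43 off the Frizzleds. Of 6 R-spondin and other Lgr genes, 3 were higher and none lower at D16. Rspo1 rose from 0.923 to 19.6 FPKM (3.41 ± 0.20, adjusted p = 2.88e-09) and Rspo4 from 0.0371 to 10.2 FPKM (3.41 ± 0.33, 4.35e-07). Rspo2, at 0.514 FPKM at D0 and 1.08 at D16 and not called there, was 9.31 FPKM in PN (2.72 ± 0.24, adjusted p = 8.95e-08).

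Among 10 secreted inhibitors and Kremen genes, 3 were higher and 1 lower at D16 against D0, with 16.6% of all genes higher and 18.7% lower. The secreted Frizzled-related gene Sfrp2 was higher on each later day, going from 0.441 FPKM at D0 to 7.88, 39.2 and 138.8 on the 3 induced days, and was 2.26 in PN (D16 against D0 6.57 ± 0.29, adjusted p = 1.63e-10). Sfrp2 was highest in D16 replicate 1 (198.8 FPKM) and lowest in replicate 3 (89.3), the reverse of Sp5, Lef1 and Axin2 in those libraries. Sostdc1 was 4.72 FPKM at D0, 4.26 at D4 and 35.1 at D16 (D16 against D0 2.53 ± 0.63, adjusted p = 0.00278), and Kremen1 was called in PN alone among the comparisons with D0 (16.3 to 1.67 FPKM, -2.68 ± 0.19).

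On the induced days the core machinery moved less. Of 18 Dishevelled, destruction complex and beta-catenin genes, 1 was higher and 1 lower at D4, and 2 higher, 1 lower and 15 not called at D16. Over all genes 13.6% were higher and 14.2% lower at D4, and 16.6% and 18.7% at D16. In PN 6 of the 18 were higher, 0 lower and 12 not called against D0, with 17.1% of all genes higher and 23.9% lower. Beta-catenin itself (Ctnnb1) was at 369.1 FPKM at D0 and 323.1 at D16 (-0.20 ± 0.18, adjusted p = 0.344), and Axin1 at 16.3 and 12.3 FPKM (-0.38 ± 0.17, adjusted p = 0.0542); both were singled out after their values were seen. The beta-catenin inhibitor Ctnnbip1 fell from 87.8 FPKM at D0 to 25.0 at D8 (-1.77 ± 0.12, adjusted p = 8.64e-09). Nkd2, the relative of Nkd1, went from 0.404 to 3.27 FPKM at D4 (1.58 ± 0.22, adjusted p = 2.26e-05) but was highest in PN at 7.90 FPKM, where Nkd1 was lowest. The neuronal relative of Apc, Apc2, was 9.48 FPKM at D0, 8.13 at D16 and 60.6 in PN (PN against D0 2.56 ± 0.32, adjusted p = 3.53e-06).

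Of 12 other nuclear factors 1 was higher and 2 lower at D16, with 16.6% of all genes higher and 18.7% lower. Tcf7l1, the family member best known as a repressor, fell with Tcf7, from 13.7 FPKM at D0 to 4.85 at D4 and 4.90 at D16 (-1.30 ± 0.29, adjusted p = 0.00116). Tcf7l2 was 6.28 FPKM at D0 and 8.26 at D16 (0.34 ± 0.26, adjusted p = 0.275) and 0.579 in PN (-2.22 ± 0.26, adjusted p = 2.36e-06). The coactivator gene Bcl9l fell from 14.8 to 4.11 FPKM at D8 (-1.70 ± 0.24, adjusted p = 2.76e-05). Targets that other pathways also drive did not follow the feedback genes as a group: of 11 tested, 2 were higher and 4 lower at D16. The 2 higher were near the share of all genes (16.6%). Cyclin D1 (Ccnd1) went from 1348 FPKM at D0 to 445, 124 and 57.4 on the 3 induced days (D16 against D0 -4.53 ± 0.19, adjusted p = 7.75e-11), and the receptor gene Tnfrsf19 from 10.8 to 118.9, 97.9 and 54.4 (D4 against D0 3.41 ± 0.37, adjusted p = 2.33e-06). Cd44 went from 208.8 to 90.1 FPKM at D16 (-1.19 ± 0.24), a change of -0.98 after quantile normalization.

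**Figure D5:**
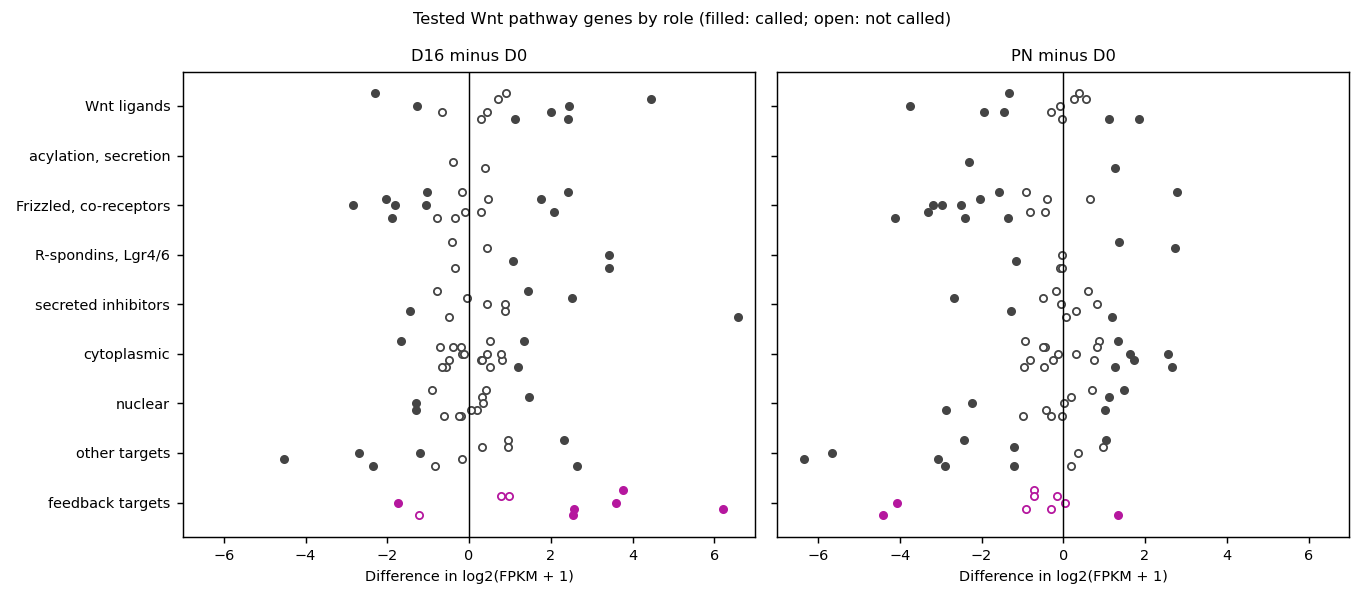
Difference in log2(FPKM + 1) of the tested genes of the pathway by role, D16 minus D0 on the left and PN minus D0 on the right; each point is 1 gene, filled where called, offset vertically only for legibility, with the 9 tested feedback targets in magenta at the bottom. At D16, 5 feedback targets lie to the right and filled, while cytoplasmic genes are mostly unfilled near 0 and the other targets spread to both sides.

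Other cell types that carry these genes were followed by markers, since in bulk RNA fewer cells of a type and less RNA per cell cannot be told apart. The 10 endothelial markers summed to 10.7 to 20.8 FPKM at D0 and 9.04 to 14.1 at D16, with Tie1 and Emcn at 0 in every library of both groups. Within that list Flt1 was higher with Lef1 and Axin2, going from 1.26 FPKM at D0 to 5.23 at D4 and 7.30 at D16 (D16 against D0 1.96 ± 0.31, adjusted p = 5.97e-05), while Slco1a4 went from 10.2 to 0.0331 FPKM (-3.27 ± 0.29, adjusted p = 1.93e-07). The 7 T cell markers in the table, of 10 listed, summed to 1.43 to 4.12 FPKM at D0 and 0.596 to 1.06 at D16. Cd3d, Cd3e, Cd3g and Cd2 were at 0 in every D0 and D16 library, and Cd247 went from 1.83 to 0.0797 FPKM and Cd28 from 0.470 to 0.0534, both too low to be tested, as Tcf7 fell. Lck, the 1 T cell marker tested, went the other way, from 0.443 FPKM at D0 to 0.735 at D16 (log2 change 0.26, not called). In PN it was at 3.40 FPKM and called higher than at D0 (1.61). The part of endothelial or T cell RNA in the levels of the members was not tested. Astrocyte markers summed to 852 to 1900 FPKM at D0, 458 to 533 at D4 and 44.9 to 54.5 at D16, and neuron markers to 281 to 393, 512 to 592 and 958 to 1000, with 3280 to 4570 in PN. Single genes made up most of some sums: Gfap, at 350 to 429 FPKM, for astrocytes at D4, and Stmn2, at 249 to 346 FPKM, for neurons at D0. Stmn2 stood at 194 to 229 FPKM at D16, against the direction of its sum. At D16 against D0, 7 of 10 neuron markers were higher and 0 lower, with 16.6% of all genes higher. All 9 tested astrocyte markers were lower, with 18.7% of all genes lower. Summed markers were also lower at D16 than at D0, as Tcf7 was, for the oligodendrocyte lineage (325 to 521, then 17.3 to 23.9 FPKM), for mural cells and fibroblasts (107 to 288, then 11 to 14.7) and for ependymal cells (118 to 234, then 5.5 to 6.93). Mog, Lum and Tmem212 of these lists were at 0 in every library of both groups. Single markers went the other way: Pdgfra was higher at D16 (0.823 to 3.52 FPKM, 1.35 ± 0.46, adjusted p = 0.0193), and Mbp stood at 0.311 FPKM at D0 and 1.37 at D16 without being called (0.86 ± 0.22, adjusted p = 0.0029). The part of these cell types in the Tcf7 fall was not tested. Of the microglia markers, Tyrobp, Cx3cr1, P2ry12, C1qb and C1qc were at 0 in all D16 libraries, and none of the list was at 0 in all D0 libraries.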

How the data were processed

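RNA-seq (total RNA, paired reads) was measured in 15 libraries, 3 for each of 5 groups. FPKM values for 24346 gene symbols were deposited by the authors as 1 table. The genome build was mm10 (GRCm38), per the submitters' processing notes; the aligner, quantifier and gene models are not given in the sources used here. Each of the 15 columns was matched to a sample title. The absolute depth is unknown, so no count model or counting interval was used; relative depth (0.68 to 1.95) was read from the steps of low FPKM values. The members and the gene lists were chosen with earlier results of these data known.

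Values were transformed as log2(FPKM + 1), and genes with at least 1 FPKM in at least 3 libraries were kept (13983). A single model of group means over all 15 libraries (10 residual degrees of freedom, variance trend on mean level) was fitted with limma 3.58.1 under R 4.3.3. Benjamini-Hochberg adjustment was made within each comparison, and calls required an adjusted p under 0.05 with a log2 change of 1 or more in size. The fit was also run on simulated data with independent noise in each gene and changes planted at D16 alone. That setting is simpler than these libraries, and no result here rests on it. The comparisons were each other group against D0, D8 and D16 against D4, and D16 against PN. Named genes were all members, up to 3 genes per pathway list with the largest change among those called against D0, the 3 genes most like each member, and cell type markers; a microglia marker, and the summed level of that list, are not reported here.

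Gene positions came from GENCODE vM21 (GRCm38) and promoter sequences from RefSeq (GRCm38.p6). Whether equal replicate numbers pair libraries was looked at through the correlation of their deviations from group means. Between D8 and D4 the same-number pairs correlated at 0.454, 0.396 and 0.329, and the other pairs at -0.497 to 0.114. In no other comparison were all 3 same-number pairs above 0.1. Replicate 2 was the deepest library of both D4 and D8 (relative depth 1.56 and 1.63), and the source of these correlations was not tested. The alternatives changed the pseudocount (0.1), the filter (none, or 5 FPKM), the scaling (equal total, or quantile), the model (replicate block, or only the compared groups), the minimum change (none) and the libraries (each left out). Summaries and figures used Python 3.11.15, numpy 2.4.6, pandas 2.3.3 and matplotlib 3.10.9.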

Additional observations from a re-analysis of the deposited data

How the results depend on the processing

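Member values that were called or had an unadjusted limma p below 0.05, and those of Notum against D0, were recomputed under the alternatives. Of the 621 values this gave, 593 kept their direction and their side of the thresholds, 17 became called, 9 were no longer called and 2 changed sign. The setting without a minimum change was not among them. Under it, members called against D0 went from 7 to 8 at D4, 6 to 7 at D8, 6 to 8 at D16 and 3 to 4 in PN. Those called between D16 and PN went from 8 to 9. The 2 that changed sign were Notum at D8 against D0, -0.085 without D0 replicate 2 and -0.619 without D8 replicate 3; over all left-out libraries it ran from -0.619 to 1.01. The number of members called from D4 to D8 ran from 0 to 1 as each library was left out, with 1 (Sp5) without D4 replicate 1. Over all genes, dropping the minimum change raised the calls against D0 from 3887 to 7587 at D4, from 4524 to 8340 at D8, from 4935 to 8775 at D16 and from 5730 to 9067 in PN. It raised them from 281 to 467 from D4 to D8, from 1007 to 2546 from D4 to D16 and from 4840 to 8678 between D16 and PN; more genes pass by construction. Genes called from D4 to D8 ran from 172 (without D4 replicate 2) to 336 as each library was left out, and were 99 with D4 replicate 2, D8 replicate 1 and D16 replicate 1 all left out. With a replicate block, which pairs libraries by number, 300 genes and 0 members were called from D4 to D8. Among the members the block changed 1 call, Nkd1 from D4 to D16 (1.04, adjusted p = 0.0333). Read counts were not used here, so the precision of low members such as Rnf43 and Lgr5 is known only from 3 libraries a group.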
